A study of Mus musculus with 3 samples.

Results

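The genes described here are 38 genes of the autophagy machinery, chosen by name from their known roles, with earlier results of these data known. All 38 have probes on the array, 54 of its 39429 probes that are not controls, found by matching the RefSeq accession of each probe to a gene symbol. A gene was tested if a probe stood well above background in 1 and the same channel on all 3 arrays, which left 37 of the 38 genes, among 17460 genes tested in all (12995 with a symbol, the rest known by accession or probe). The exception is Atg4a, a protease gene of the Atg8 proteins.

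Lower-limb skeletal muscle was taken from male C57BL/6 mice of 2 kinds, mFoxO1KO mice, with an inducible deletion of Foxo1 restricted to skeletal muscle, and control mice. Both kinds ate an AIN93G diet with 0.625 g/kg doxycycline between 8 and 14 weeks of age, so the controls received the inducing agent too. There were 3 mFoxO1KO and 3 control samples, described as biological replicates, and each of 3 Agilent two-colour arrays carried 1 mFoxO1KO sample in Cy5 and 1 control sample in Cy3. No array had the dyes reversed, so a dye effect of a single probe cannot be told apart from genotype. Which promoter drives the deletion, and the exact genotype of the controls, are not given in the sources used here.

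Autophagy delivers cytoplasm and organelles to the lysosome inside a double membrane. A kinase complex built on Ulk1 starts the process, a lipid kinase complex around Pik3c3 and Becn1 marks the membrane, and ubiquitin-like conjugation attaches Atg8 proteins (the LC3 and GABARAP families) to it. Cargo receptors then tether ubiquitinated protein to the Atg8 proteins, and a further set of genes selects mitochondria. In mouse muscle the pathway is active in fasting and denervation, and Foxo3, a relative of Foxo1, is known to activate Map1lc3b, Gabarapl1 and Bnip3 there.

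The targeted gene was measured first. Foxo1 had log2 normalised intensities of 9.83, 10.16 and 9.96 in the mFoxO1KO channel of arrays 1, 2 and 3, against 11.33, 12.59 and 12.22 in the control channel. The genotypes did not overlap, and the Foxo1 ratio was -2.06 ± 0.49 on the log2 scale (SD, n = 3 arrays), or 23.9% of control (limma, adjusted p = 0.0278). The dimmer Foxo1 probe averaged -1.39 ± 0.61 and did not pass when probes were tested singly (adjusted p = 0.0535). Foxo1 missed the threshold without replicate 2 (-1.88, adjusted p = 0.103) and among genes above the median intensity alone (adjusted p = 0.0515), within a range of 8.50e-05 to 0.103 for 14 alternatives. It is not known here which exons the deletion removes or where the probes lie. All 8 skeletal muscle markers looked for, among them Ckm and Acta1, were well above background in both genotypes.

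No autophagy gene passed the test. Of the 37 genes measured, 0 were higher and 0 were lower in mFoxO1KO muscle at an adjusted p of 0.05 (limma, Benjamini-Hochberg over all 17460 genes). Over all genes tested 2.75% were called, 2.06% higher (359 genes) and 0.699% lower (122 genes). With median centring in place of loess these were 1154 and 51 genes. The mean log2 ratios of the 37 ran from -0.38 for Bnip3l to 0.29 for Map1lc3b, and their median was -0.012, against 0.0068 for all genes tested. At an unadjusted p under 0.05 there were 13 of the 37, 7 higher and 6 lower, where 26.8% of all genes met that limit. A ratio above 0 on all 3 arrays was found for 11 of the 37 (27.9% of all genes) and a ratio below 0 on all 3 for 9 (24.5% of all genes). The channel levels of the genotypes did not overlap for 7 of the 37, and for 25.9% of all genes. The shares among the autophagy genes were thus near those of the whole array. The share at an unadjusted p under 0.05 was the furthest above it, and the share without overlap the furthest below.

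The intervals of the differences were narrow. For all 37 genes the 95% interval of the log2 ratio (limma) lay within a change of 2-fold in either direction, as it did for 97.0% of all genes tested. It lay within 1.5-fold for 37 of 37, and for 88.4% of all genes. The median SD between arrays was 0.14 for the 37 genes and 0.11 for all genes, so the 37 were not measured more tightly. The count within 1.5-fold was 22 with median centring, which moved the median of all genes to 0.156 and that of the 37 to 0.19, and it was 33 to 37 in the other alternatives that tested the same 37 genes. The count within 2-fold was 37 in each of these. The intervals cover the spread between 3 arrays and not a dye effect. Because whole muscle was used, fewer cells of a type and less RNA per cell cannot be told apart in any value given here.

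**Figure D1:**
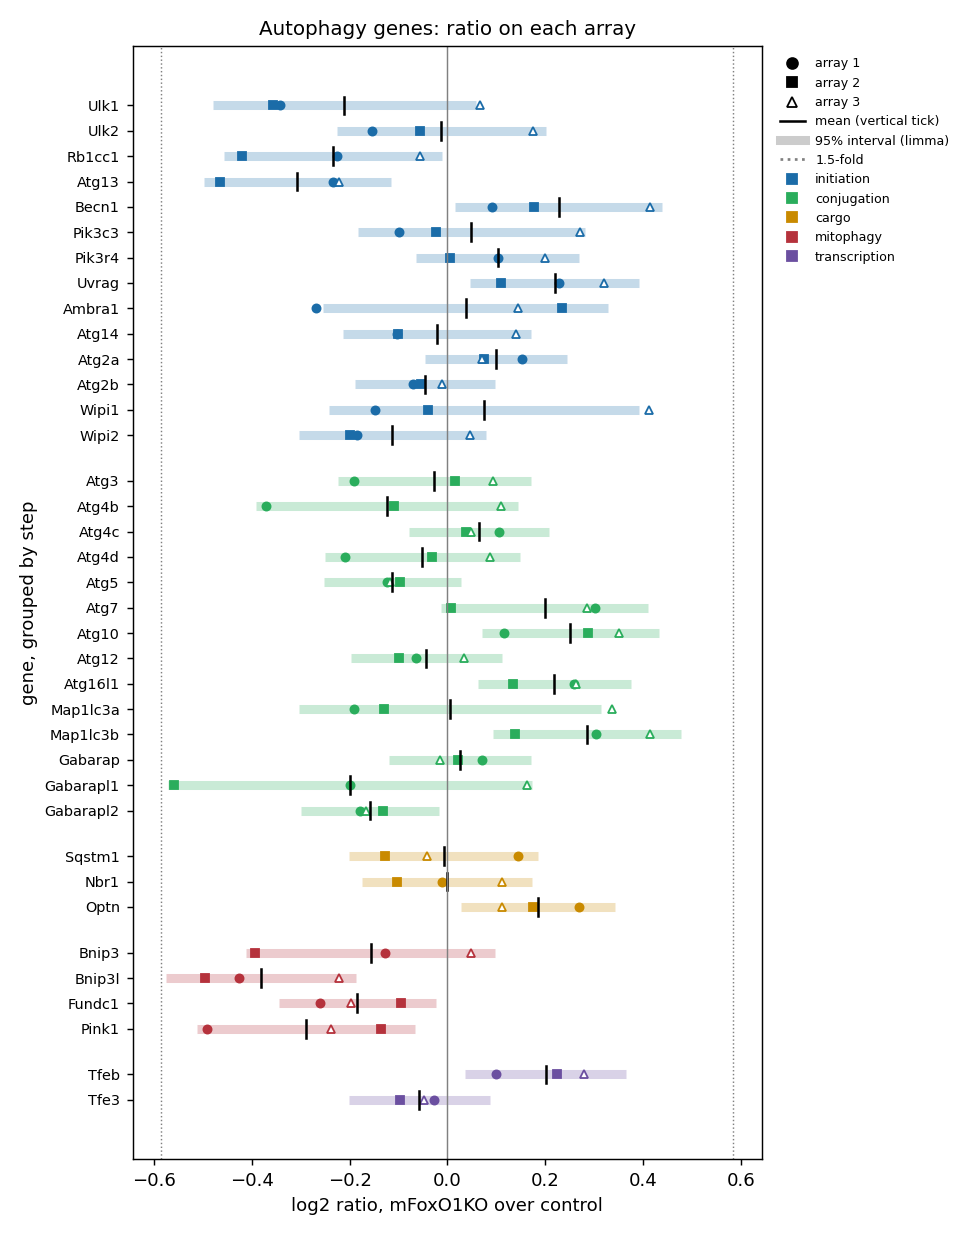
Log2 ratio of mFoxO1KO over control for each of the 37 autophagy genes measured, on the horizontal axis, with genes down the page in 5 steps marked by colour. Symbols are the 3 arrays, black ticks the means, bands the 95% intervals from limma and dotted lines a change of 1.5-fold. Every band stays inside the dotted lines, and many bands cross 0.

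Among the initiation genes the 4 members of the ULK complex all had mean ratios below 0, with a median of -0.22. In the alternatives Ulk1 was above 0 with median centring (0.10), and Ulk2 in 5 of 14 (at most 0.19, with median centring). Some of the 14, those of filter, variance model and pairing, could not change these ratios. Ulk1, the kinase that starts autophagy, had levels of 14.16, 14.31 and 14.38 (log2 normalised intensity) in mFoxO1KO muscle, against 14.50, 14.66 and 14.31 in control muscle. It was lower in mFoxO1KO muscle on arrays 1 and 2 only, and the genotypes overlapped. The mean log2 ratio of Ulk1 was -0.21 ± 0.24 (SD, n = 3), with an interval of -0.48 to 0.058 (limma, adjusted p = 0.265). Atg13, the adaptor subunit of the complex, had levels of 12.47, 12.64 and 12.54 in mFoxO1KO muscle, against 12.70, 13.10 and 12.77 in control muscle. These did not overlap, and the log2 ratio of Atg13 was -0.31 ± 0.14 (adjusted p = 0.092), the lowest adjusted p of the initiation genes and short of the threshold.

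Rb1cc1, which encodes the scaffold FIP200, had levels of 10.68, 10.53 and 10.46 in mFoxO1KO muscle, against 10.90, 10.95 and 10.52 in control muscle. It was lower on each array by an amount that ranged widely, with log2 ratios of -0.22, -0.42 and -0.055, and the genotypes overlapped (mean -0.23 ± 0.18, limma adjusted p = 0.174). Its second probe averaged -0.13. Ulk2, a second ULK kinase, had log2 ratios of -0.15, -0.057 and 0.17 on the 3 arrays, and its probes averaged -0.012 and -0.045. The ULK group had array medians of -0.23, -0.39 and 0.0059, and on array 3 Ulk1 and Ulk2 were above 0 while Rb1cc1 and Atg13 were below it.

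The 6 genes of the lipid kinase complex lay mostly on the other side of 0, with 5 means above it (3 without replicate 3) and a median of 0.076. Becn1, the scaffold of the complex, had levels of 9.14, 8.98 and 9.40 in mFoxO1KO muscle, against 9.05, 8.80 and 8.98 in control muscle. The ratio of Becn1 was above 0 on every array but its size differed between them, and the mean was 0.23 ± 0.17 (limma, adjusted p = 0.167). Uvrag, a Becn1-binding subunit, had levels of 10.59, 10.41 and 10.74 in mFoxO1KO muscle, against 10.36, 10.30 and 10.42 in control muscle. The genotypes overlapped slightly for Uvrag, whose log2 ratio was 0.22 ± 0.11 (adjusted p = 0.129).

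The catalytic subunit gene Pik3c3 averaged 0.049 ± 0.20, and its second probe 0.093. Pik3r4, the regulatory subunit gene, averaged 0.10 ± 0.096 and was above 0 on every array, on array 2 by only 0.0064. Ambra1, a Becn1 partner that links the complex to ubiquitin ligases, had log2 ratios of -0.27, 0.23 and 0.15, the widest disagreement of the group. Atg14, the subunit that directs the complex to autophagy, averaged -0.021 ± 0.14. Adjusted p-values of these 4 genes ranged from 0.356 for Pik3r4 to 0.881 for Atg14 (limma).

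Genes that act on the growing membrane stayed close to 0. The lipid transfer protein genes Atg2a and Atg2b averaged 0.099 ± 0.045 and -0.046 ± 0.031, each with 1 sign on all arrays. Wipi1, which binds the lipid made by Pik3c3, had log2 ratios of -0.15, -0.040 and 0.41, and array 3 alone set its mean above 0 (0.075 ± 0.30). Wipi2, a related lipid-binding protein gene that recruits Atg16l1, averaged -0.11 ± 0.14 with its brighter probe and 0.11 with the other, so its probes had opposite signs.

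The conjugation enzymes were split around 0. Of the 9 genes measured, 4 means were above 0 and 5 below, with a median of -0.027, although all 9 were above 0 with median centring. Atg10, the conjugating enzyme of Atg12, had levels of 8.47, 8.47 and 8.77 in mFoxO1KO muscle, against 8.35, 8.18 and 8.42 in control muscle. The lowest mFoxO1KO values of Atg10 lay just above the highest control value, and its log2 ratio was 0.25 ± 0.12 (limma, adjusted p = 0.112). The second Atg10 probe averaged 0.065. Atg16l1, which places the conjugation complex on the membrane, had levels of 9.17, 9.14 and 9.35 in mFoxO1KO muscle, against 8.91, 9.00 and 9.09 in control muscle. Its genotypes did not overlap, at a log2 ratio of 0.22 ± 0.074 (adjusted p = 0.11), and 1 probe measured it.

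Atg7, the activating enzyme shared by both conjugation reactions, had log2 ratios of 0.30, 0.0071 and 0.29, so that array 2 showed almost no difference (mean 0.20 ± 0.17, limma adjusted p = 0.203). Its second probe averaged 0.15. Atg5, the partner to which Atg12 is joined, had a narrow spread, with log2 ratios of -0.12, -0.098 and -0.12 and a mean of -0.11 ± 0.013 (adjusted p = 0.254). Atg12 itself averaged -0.043 ± 0.069 with its brighter probe and -0.16 with the other. Atg3, the conjugating enzyme of the Atg8 proteins, averaged -0.027 ± 0.15.

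The Atg4 genes encode the proteases that prime and recycle Atg8 proteins. Atg4b averaged -0.12 ± 0.24, Atg4c 0.065 ± 0.037 and Atg4d -0.051 ± 0.15 on the log2 scale, with adjusted p-values between 0.483 and 0.705 (limma). The single probe of Atg4a was well above background on 0 mFoxO1KO arrays and on 2 control arrays, so Atg4a was not tested. Its mean log2 level was 6.51 in mFoxO1KO muscle, against 6.54 in control muscle.

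The Atg8 family showed no common direction, with 3 means above 0 and 2 below, although all 5 were above 0 with median centring. Map1lc3b, the LC3 protein gene most used as an autophagosome marker, had levels of 14.25, 14.31 and 14.53 in mFoxO1KO muscle, against 13.95, 14.17 and 14.12 in control muscle. Every mFoxO1KO value was above every control value. The log2 ratio of Map1lc3b was 0.29 ± 0.14 (SD, n = 3), with an interval of 0.093 to 0.48 (limma, adjusted p = 0.103). Median centring in place of loess gave 0.59 and a pass (adjusted p = 0.0349). Across 14 alternatives the adjusted p of Map1lc3b spanned 0.0349 to 0.259.

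Gabarapl1, a GABARAP relative, had levels of 14.68, 14.73 and 14.81 in mFoxO1KO muscle, against 14.88, 15.29 and 14.65 in control muscle. Here the mFoxO1KO values were close together, while the control values spread over a wider range that enclosed them. The log2 ratios of Gabarapl1 were -0.20, -0.56 and 0.16, with a mean of -0.20 ± 0.36 and an interval of -0.57 to 0.17 (limma, adjusted p = 0.418). Gabarapl2, a second relative, had levels of 12.73, 12.82 and 12.80 in mFoxO1KO muscle, against 12.91, 12.96 and 12.97 in control muscle. The genotypes of Gabarapl2 did not overlap, although the difference was small (-0.16 ± 0.024, adjusted p = 0.156).

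Gabarap itself averaged 0.026 ± 0.043 with its brighter probe and -0.029 with the other. Map1lc3a, the second LC3 gene, had log2 ratios of -0.19, -0.13 and 0.34, and the difference on array 3 was offset by the other two (mean 0.0054 ± 0.29). Thus Map1lc3b and Gabarapl1, both named above as Foxo3 targets, had means on opposite sides of 0, and neither passed the test.

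**Figure D2:**
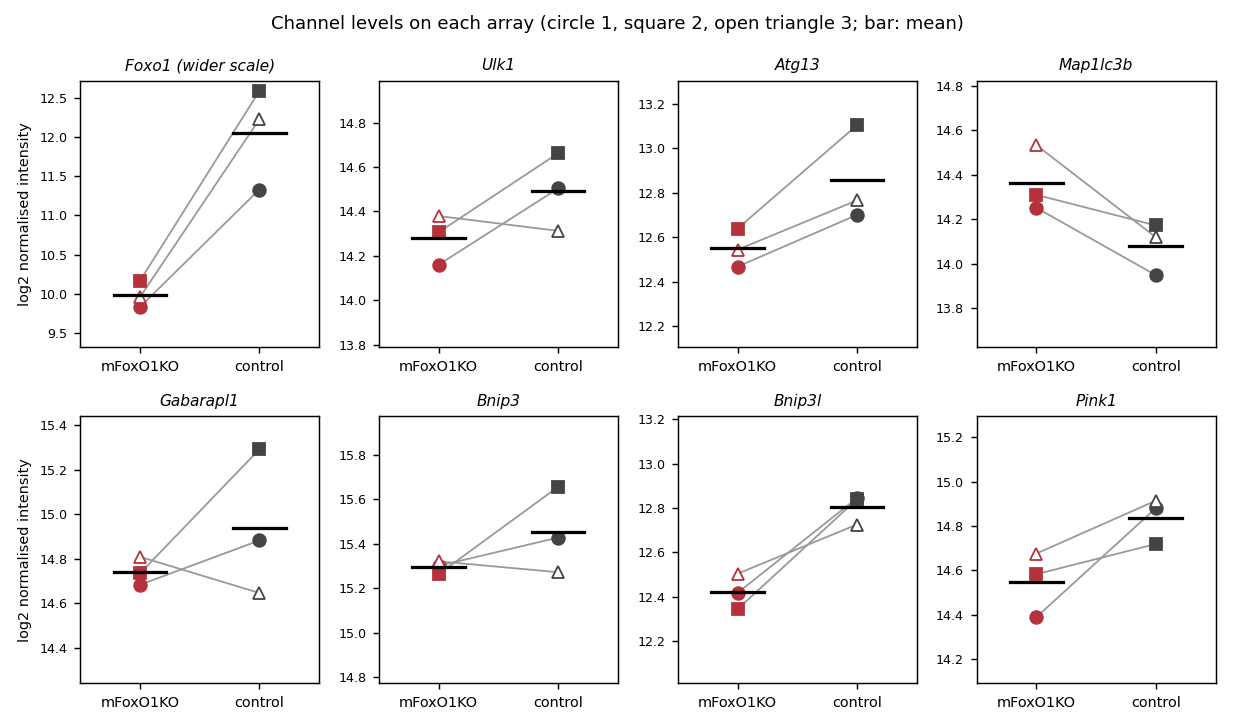
Log2 normalised intensity of Foxo1 and of 7 autophagy genes in the mFoxO1KO channel (left, red) and the control channel (right, grey) of each array, with symbols for the arrays, lines joining the channels of an array and bars for means. All panels but that of Foxo1 span the same height. The lines of Ulk1, Gabarapl1 and Bnip3 run in different directions on different arrays, while those of Atg13, Map1lc3b, Bnip3l and Pink1 run one way.

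The cargo receptor genes gave a median of -0.00077 over 3 genes. Sqstm1, which encodes the receptor p62, had levels of 13.03, 13.17 and 13.26 in mFoxO1KO muscle, against 12.88, 13.29 and 13.30 in control muscle, and the genotypes overlapped throughout. The log2 ratio of Sqstm1 was -0.0078 ± 0.14, with an interval of -0.20 to 0.18 (limma, adjusted p = 0.957). Nbr1, a receptor related to p62, had log2 ratios of -0.012, -0.10 and 0.11 and a mean of -0.00077. Optn, the optineurin gene, whose product also serves in mitophagy, was above 0 on every array, at 0.27, 0.18 and 0.11, with a mean of 0.19 ± 0.078 (adjusted p = 0.147).

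The 4 mitophagy genes Bnip3, Bnip3l, Fundc1 and Pink1 had a median of -0.24, with array medians of -0.34, -0.26 and -0.21. In the same order the array medians were -0.13, -0.047 and 0.14 for initiation, -0.094, -0.012 and 0.10 for conjugation, 0.15, -0.10 and 0.11 for cargo, and 0.036, 0.063 and 0.12 for the transcription factors. With probes of a gene averaged, the mitophagy median was -0.16, as Bnip3l became -0.13 and Bnip3 -0.073. The low median was not shared by 17 other cargo and mitophagy genes, part of the further pathway genes examined below. By the brightest probe of each gene their median was 0.028, with 11 means above 0 and 6 below. Their array medians were 0.053, 0.0054 and 0.14. No test between steps was made, since the groups are small and their genes share the same 3 arrays. With median centring and its median of 0.156 for all genes, the medians were 0.031 for mitophagy, 0.21 for initiation, 0.21 for conjugation, 0.26 for cargo and 0.28 for the transcription factors.

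Bnip3l, a mitochondrial outer-membrane receptor also called NIX, had levels of 12.42, 12.34 and 12.50 in mFoxO1KO muscle, against 12.84, 12.84 and 12.73 in control muscle. The genotypes did not overlap, and the log2 ratio of -0.38 ± 0.14 was the lowest of the 37 genes, as was its adjusted p of 0.069 (limma). That value rests on the brightest of 4 probes. The other 3 Bnip3l probes, designed on the same transcript accession, averaged -0.055, 0.011 and -0.099, so 3 of 4 probes showed a difference of 0.10 or less. Pink1, the kinase gene that flags damaged mitochondria, had levels of 14.39, 14.58 and 14.68 in mFoxO1KO muscle, against 14.88, 14.72 and 14.91 in control muscle. These did not overlap either, at a log2 ratio of -0.29 ± 0.18 (adjusted p = 0.126).

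Bnip3, the paralogue of Bnip3l, had levels of 15.30, 15.26 and 15.32 in mFoxO1KO muscle, against 15.43, 15.66 and 15.27 in control muscle. As for Gabarapl1, the mFoxO1KO values were closer together than the control values, and they lay near the lowest control value. The log2 ratio of Bnip3 was -0.16 ± 0.22, with an interval of -0.41 to 0.097 (limma, adjusted p = 0.356), and its 2 other probes averaged -0.065 and 0.0025. Fundc1, a receptor of the outer membrane that binds LC3, had log2 ratios of -0.26, -0.096 and -0.20 and a mean of -0.18 ± 0.083 (adjusted p = 0.152).

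Tfeb and Tfe3 encode transcription factors that drive lysosome and autophagy genes. Tfeb had levels of 10.08, 10.22 and 10.42 in mFoxO1KO muscle, against 9.98, 9.99 and 10.14 in control muscle, which overlapped although the ratio was above 0 on every array (mean 0.20 ± 0.092, limma adjusted p = 0.138). Tfe3 averaged -0.057 ± 0.036 with its brighter probe and 0.079 with the other, each with 1 sign on all arrays and the signs opposed.

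**Figure D3:**
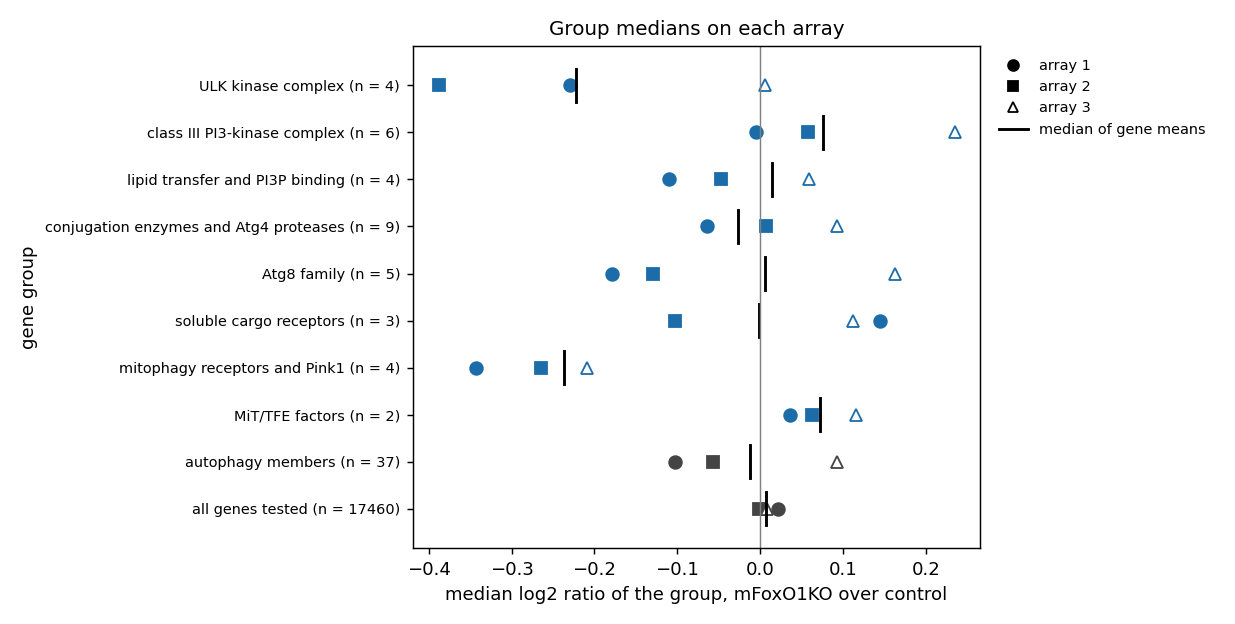
Loess-normalised median log2 ratio of mFoxO1KO over control within 8 groups of autophagy genes, within all 37 and within all 17460 genes tested, on the horizontal axis, by array (symbols) and for the gene means (ticks). Array 3 lies to the right of array 1 in every group of autophagy genes except the cargo receptors.

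The ratios of these genes differed between the 3 arrays. Each array carried its own pair of samples, so a difference between arrays cannot be told apart from a difference between samples. The 37 genes had median ratios of -0.10, -0.057 and 0.093 on arrays 1, 2 and 3, against 0.022, -0.0018 and 0.0079 for all genes tested. Array 3 gave the highest of the 3 ratios for 25 of the 37 genes (67.6%), and for 33.1% of all genes. A ratio above 0 on array 3 and below 0 on arrays 1 and 2 was found for 13 of the 37 genes, Ulk1, Wipi1, Map1lc3a, Gabarapl1 and Bnip3 among them, and for 8.84% of all genes. Without replicate 3 the median of the 37 was -0.082, and without replicate 1 it was 0.020.

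Some markers of muscle fibres and of fat also had ratios that varied between arrays. Myh2, the myosin gene of a fast oxidative fibre type, had log2 ratios of -1.69, -0.34 and 1.36 on arrays 1, 2 and 3. Myh1 and Myh4, the other myosin genes looked at, had the same order of arrays over a smaller range. The ratios were 0.22, 0.28 and 0.66 for Myh1 and -0.067, 0.13 and 0.28 for Myh4. Of 10 adipocyte markers 8 were measured, and all 8 had mean ratios above 0, with a median log2 ratio of 1.8. Of these, 7 did not overlap between genotypes (25.9% of all genes) and 7 were above 0 on every array (27.9% of all genes). An unadjusted p under 0.05 was found for 7 (26.8% of all genes), and 0 passed the adjusted threshold (limma, 2.75% of all genes). The summed normalised intensity of the 8 adipocyte markers was 217447, 104799 and 174259 in mFoxO1KO muscle, against 40760, 96469 and 64474 in control muscle. The 2 markers left, Lep and Ucp1, did not meet the background limit. The summed level of the 8 skeletal muscle markers was 624994 to 656490 in mFoxO1KO muscle, against 551382 to 585351 in control muscle, and 1 of the 8, the myoglobin gene Mb, passed the test (higher, limma adjusted p = 0.0449). None of the 15 macrophage, endothelial, fibroblast and erythroid markers measured passed it. The part of muscle fibres or of fat in the ratios of the autophagy genes was not tested.

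Agreement between probes bears on how far a single ratio can be read. Among 37 genes, 24 had 1 kept probe and 13 had 2 to 4, with 29 probes in all. All probes of a gene had the same sign for 7 of the 13 genes and both signs for 6. The genes with both signs were Atg4c, Bnip3, Bnip3l, Gabarap, Tfe3 and Wipi2. The largest gap between the probes of a gene was 0.39, for Bnip3l, followed by 0.22 for Wipi2 and 0.19 for Atg10. With probes tested singly, 0 of 53 kept probes of these genes passed (limma, lowest adjusted p 0.0672) and 13 had an unadjusted p under 0.05. Over all genes tested, each by its brightest probe, 2.75% passed and 26.8% met the unadjusted limit.

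**Figure D4:**
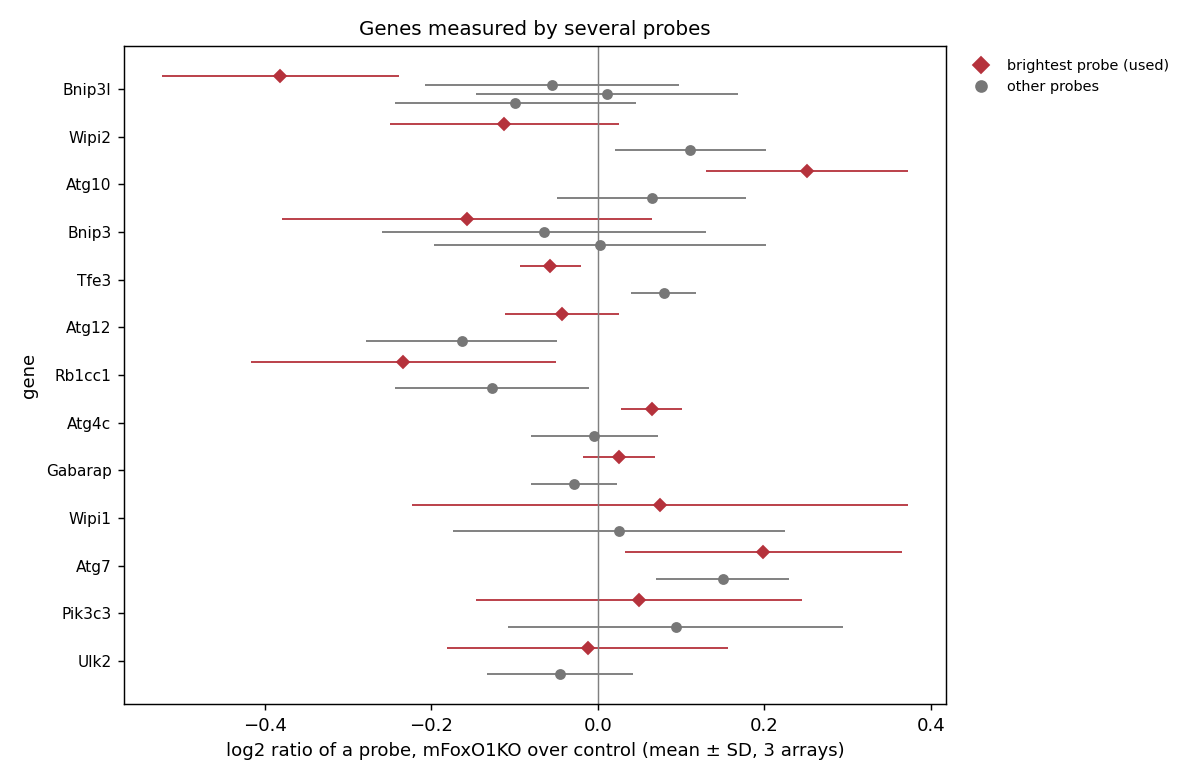
Log2 ratio of mFoxO1KO over control for each kept probe of the 13 autophagy genes with several probes (horizontal axis, mean ± SD over 3 arrays), ordered by the gap between probes. Diamonds are the brightest probe, used in the test, and circles the other probes. The diamond of Bnip3l stands apart from its circles.

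A further 46 genes of the pathway that are not among the 38 were examined by the same test. Of the 45 measured, 1 was higher, 0 were lower and 44 did not pass, against 2.75% called over all genes, and their median ratio was 0.037. The gene that rose was Trp53inp1, a stress-induced gene of the p53 pathway whose product binds Atg8 proteins. It had levels of 11.77, 11.60 and 11.45 in mFoxO1KO muscle, against 10.84, 10.94 and 10.71 in control muscle. The genotypes did not overlap, and the log2 ratio was 0.78 ± 0.13 (SD, n = 3), or 1.71-fold (limma, adjusted p = 0.0278). Its second probe averaged 0.43 and passed when probes were tested singly (adjusted p = 0.0459). The Trp53inp1 ratio did not pass in 4 of 14 alternatives, which were the deposited log ratios, the genes above the median intensity, and the fits without replicate 2 or replicate 3, with a highest adjusted p of 0.106.

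The next 4 by smallest p did not pass. Bcl2l1, an inhibitor of cell death whose product binds Becn1, had a log2 ratio of 0.54 ± 0.17 (limma, adjusted p = 0.0505) and passed in 4 of 14 alternatives. Its second probe averaged 0.19, and with its probes averaged the ratio was 0.36. Vmp1, an endoplasmic reticulum gene of autophagosome formation, had 0.35 ± 0.15 and passed with median centring alone (0.60). Stx17, the autophagosomal syntaxin of lysosome fusion, had -0.35 ± 0.16, and its 2 other probes averaged 0.091 and -0.13. Vps41, a subunit of the tethering complex at the lysosome, had 0.29 ± 0.11. In the fusion group 9 of 13 means were above 0 and 4 below, with a median of 0.037.

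Promoter sequence was searched for GTAAACA, a form of the letters that FoxO factors bind, since the deleted gene encodes such a factor. Variants that differ from it by a letter were not searched for. RefSeq windows on GRCm38.p6, of 250 bases before to 50 after a gene's start, were at hand for 31 of the 38 genes, in 37 windows. The letters GTAAACA, on either strand, were in 0 of the 37 windows and in 3.65% of 32851 windows of all genes. The CLEAR motif of Tfeb, searched for only in an exact form and without variants, was in 0 of 37, and in 0.326% of all. That motif is so rare over all windows that a count of 0 says little about these genes. Its shorter core CACGTG, which the CLEAR motif contains, was in 5 of 37, those of Atg14, Atg3, Atg5, Atg7 and Bnip3, and in 7.15% of all. A match is a description and not a bound site, and its absence says only that those letters are not in the window.

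The windows of the 3 Foxo3 targets named above are shown because a FoxO factor is known to activate these genes in mouse muscle, and beside them stand their log2 ratios of 0.29 for Map1lc3b, -0.20 for Gabarapl1 and -0.16 for Bnip3. They are written 5′ to 3′ on the strand of the gene, with CACGTG in capitals. In Bnip3 it begins 108 bases before the start, and the other two windows have no capitals.
Map1lc3b, GRCm38.p6 chr8:121590188-121590487, plus strand: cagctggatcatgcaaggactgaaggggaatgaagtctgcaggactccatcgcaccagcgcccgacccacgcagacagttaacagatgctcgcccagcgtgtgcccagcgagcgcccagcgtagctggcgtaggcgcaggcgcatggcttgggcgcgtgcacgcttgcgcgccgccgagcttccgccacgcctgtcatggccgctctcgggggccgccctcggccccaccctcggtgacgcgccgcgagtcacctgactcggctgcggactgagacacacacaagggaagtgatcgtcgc
Gabarapl1, GRCm38.p6 chr6:129532942-129533241, plus strand: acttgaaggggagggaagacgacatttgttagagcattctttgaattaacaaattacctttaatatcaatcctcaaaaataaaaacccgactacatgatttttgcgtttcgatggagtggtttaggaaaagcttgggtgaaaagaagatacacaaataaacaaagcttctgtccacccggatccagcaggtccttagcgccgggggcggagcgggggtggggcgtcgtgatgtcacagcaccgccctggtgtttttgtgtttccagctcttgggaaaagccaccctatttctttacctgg
Bnip3, GRCm38.p6 chr7:138909457-138909756, minus strand: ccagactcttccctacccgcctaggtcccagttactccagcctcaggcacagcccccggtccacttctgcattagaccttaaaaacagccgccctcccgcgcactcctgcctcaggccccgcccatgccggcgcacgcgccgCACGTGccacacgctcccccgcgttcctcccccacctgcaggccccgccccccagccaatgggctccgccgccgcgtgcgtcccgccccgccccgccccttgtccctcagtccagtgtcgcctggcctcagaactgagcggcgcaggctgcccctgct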

How the data were processed

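The deposited files are scanner output, 1 per array. Per the file headers both dyes are recorded there as a spot's median intensity and the intensity of its surroundings, by Agilent Feature Extraction 11.5.1.1 (9.3.2.1 per the submitters' processing notes). They also hold processed intensity values and a log10 ratio of processed Cy5 over Cy3, which the authors deposited and which served as an alternative. The labelling reaction started from 0.2 µg of RNA, per the labels' protocols.

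Background was corrected with normexp (offset 50) and dyes were normalised by loess within each array, in limma 3.58.1 under R 4.3.3. Spots marked as outliers, 281 to 319 per array, were left out. The brightest kept probe stood for a gene. The log2 ratio of mFoxO1KO over control was tested against 0 (lmFit and eBayes, two-sided, Benjamini-Hochberg over 17460 genes). Channel levels were scaled further by Aquantile. The shared array pairs the samples. Probes well above background made up 56.1% to 56.9% in the mFoxO1KO channel, against 52.0% to 55.9% in the control channel, and 3 arrays limit the precision. The fit was tested on simulated ratios. Alternatives changed the background correction, dye normalisation, scaling, probe filter, probe choice, variance model, pairing and replicates. The header names an older mouse build than the gene table, so the only coordinates given are those of the RefSeq promoter windows, on the table's build. Of the 39 genes chosen, 38 are named and 1 is not reported here and stays out of every count of these genes; of the other pathway genes those past the threshold and the 4 next by p. The genes, lists and tests were chosen with earlier results of these data known.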

Additional observations from a re-analysis of the deposited data

How the results depend on the processing

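Over 14 alternatives, 1 of 511 ratios of the autophagy genes passed the test, higher in mFoxO1KO muscle. The count of these genes called was 1 with median centring only (Map1lc3b), in place of 0, and it was 0 in the other alternatives. Their median was 0.19 with median centring only, a setting that moved the median of all genes to 0.156. The count over all genes, 481 (359 higher, 122 lower), was 1205 (1154 higher, 51 lower) with median centring only, 831 with scaled ratios, 748 with no filter, 212 with no replicate block in a fit of separate channels, 200 with the deposited log ratios, 55 when both channels of a probe had to clear background, and 9 among the brighter genes only. It ranged from 50 to 434 with a replicate left out, and was 481 with the array as a replicate block, which is the same paired comparison. The causes were not tested. The sign of a ratio changed in 41 of the 511 cases, among 23 genes, none past the threshold. Alternatives that changed only the probe filter, the variance model or the pairing left the ratios of these genes as they were. A sign could not change in those cases, although they are counted among the 511. Signal over background leaves Atg4a without a test, and 3 arrays without dye reversal limit every ratio.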
